A study of Homo sapiens with 6 samples.

Results

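The zinc finger genes described here are the protein-coding genes with a numbered ZNF symbol that lie on autosomes other than chromosome 19. Members were chosen by their symbol, position and level, with a mean over the 6 libraries of at least 1 CPM, the count scaled to the library total. That floor was met by 210 of 251 such genes, among 60617 genes in the count table. The floor uses the level over all libraries and not the difference between groups. Just inside it were ZNF410 at 1.01 CPM, ZNF436 at 1.02 CPM and ZNF214 at 1.04 CPM (ZNF410 shares 42.2% of its exonic bases with a same-strand gene, ZNF214 30.4% with an opposite-strand one), and just outside it were ZNF843 at 0.882 CPM, ZNF280B at 0.689 CPM and ZNF311 at 0.509 CPM.

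RNA came from A549, an established human lung cancer cell line, grown without any stated treatment. One group was wild type (WT) and the other carried a knockout of YTHDF1, which encodes a reader of N6-methyladenosine in RNA, and each group held 3 libraries. The labels call the libraries biological replicates but do not say whether they came from separate cultures, whether the knockout was 1 clone or a pool, or which part of the gene was edited. The p-values therefore measure only the spread between these libraries. The series sets the transcriptomes of wild-type and knockout cells side by side.

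Library totals ran from 27238817 to 40675628 counts, and 3 counts in a library stood for 0.0738 to 0.110 CPM, a floor that covers counting error only. YTHDF1 RNA was 98.0, 104 and 96.4 CPM in wild-type and 48.6, 48.6 and 47.1 CPM in knockout libraries, so that the transcript was lower but still present. All 10 markers listed for A549 and epithelium reached 1 CPM in every library. Their summed level was 11402 to 12063 CPM in wild-type and 10101 to 10456 CPM in knockout libraries. Of 4 endothelial markers 0 reached that level in all libraries (sums of 0.222 to 0.808 CPM against 0.197 to 0.531 CPM), and of 5 fibroblast markers 1 did, COL1A1 (sums of 29.8 to 34.6 CPM against 43.3 to 47.0 CPM). Among 5 leukocyte markers CD14 reached it and CD3E had 0 counts everywhere (sums of 10.99 to 11.4 CPM against 3.09 to 4.12 CPM). Mitochondrially encoded mRNAs took 5.76% to 5.92% of the counts in wild-type and 3.72% to 3.98% in knockout libraries, and the part of these shifts in the results below was not tested.

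C2H2 zinc finger proteins read DNA through repeated fingers, each a short loop held by a zinc ion between a pair of cysteines and a pair of histidines. Many also carry a KRAB box, which binds the corepressor TRIM28. TRIM28 in turn brings the histone methyltransferase SETDB1 and heterochromatin proteins to the bound site, which is best known for silencing transposable elements. Chromosome 19 holds the densest arrays of KRAB zinc finger genes, while those elsewhere include both dispersed old genes and smaller arrays. Members without a KRAB box include promoter factors, subunits of chromatin complexes and proteins that bind RNA or ribosomes.

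A C2H2 finger pattern was found in the longest coding sequence of 203 of the 210 members, with a median of 9 fingers and a maximum of 34 in ZNF462. The 7 members with 0 matches included ZNF365, ZNF503 and ZNF703. A KRAB box was found in 97 members and not in 113. Members were mostly weakly to moderately expressed: the median of the mean levels was 17.5 CPM, 40 members were under 5 CPM, 29 were at 50 CPM or above, and the highest was ZNF207 at 216 CPM.

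Together the members took a slightly larger share of the RNA in the knockout libraries. They held 0.536%, 0.531% and 0.535% of the counts in wild-type libraries and 0.561%, 0.563% and 0.571% in knockout libraries. The groups do not overlap in this share. In bulk RNA, a change in the number of cells with a transcript and a change in the amount per cell cannot be told apart.

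Members changed in both directions, mostly by small amounts, and a smaller share passed the test than of genes at large. By the quasi-likelihood test of edgeR, with p-values adjusted by Benjamini-Hochberg over 18505 genes, 97 of 210 members (46.2%) passed an adjusted p of 0.05, against a background of 53.5% of all genes tested and 66.4% of protein-coding autosomal genes at the same floor. Of these, 62 rose (29.5%) and 35 fell (16.7%), while 113 did not pass. Of all genes tested 27.2% rose and 26.3% fell, and of protein-coding autosomal genes at the same floor 33.3% rose and 33.1% fell. Wild-type and knockout libraries did not overlap for 115 members (54.8%), against 58.9% of all genes tested and 70.2% of the protein-coding genes. The median log2 fold change (knockout minus wild type) was 0.08 over the members and 0.00 over all genes tested.

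The changes had a narrow range, as the plot of ranked changes shows. The log2 fold change was between -0.5 and 0.5 for 174 members (82.9%), against 68.4% of protein-coding autosomal genes at the same floor. The middle of the distribution, from the lower to the upper quartile, spanned -0.15 to 0.29 in members and -0.30 to 0.33 in those protein-coding genes. A rise of at least 1 on the log2 scale that passed the test was seen in 4 members, ZNF107, ZNF879, ZNF391 and ZNF467, where 7.95% of all genes tested and 7.01% of the protein-coding genes rose by that much. A fall of at least 1 was seen in 3 members, ZNF365, ZNF488 and ZNF300, against backgrounds of 4.44% and 3.37%.

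**Figure D1:**
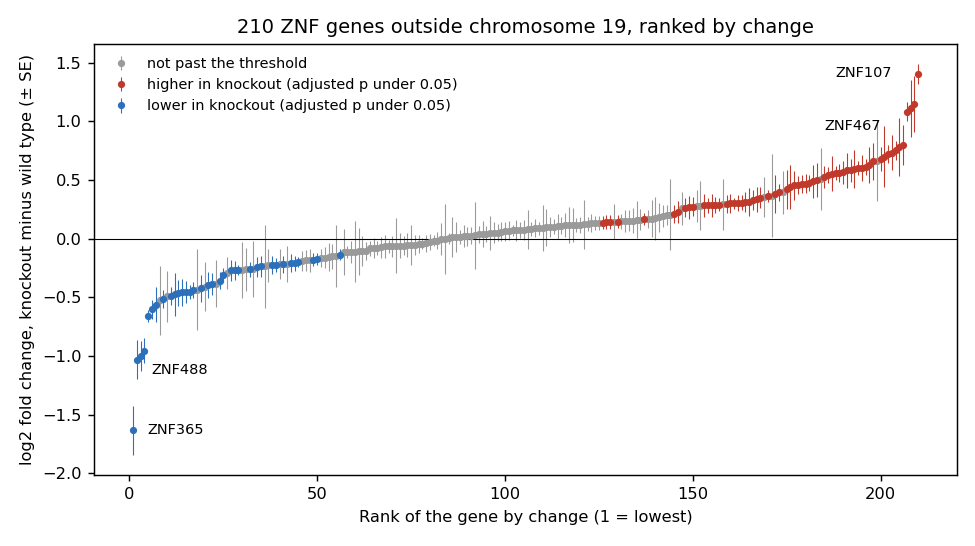
Log2 fold change, knockout minus wild type, of each of the 210 members (vertical axis) against its rank by that change (horizontal axis), with bars of ± the standard error of the fit. The 62 red points rose, the 35 blue points fell and the grey points did not pass the threshold; the ends of the curve are ZNF365 at -1.63 and ZNF107 at 1.41.

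Low level went with fewer calls. Between 1 and 5 CPM, 7 of 40 members rose and 2 fell, a called share of 22.5% where protein-coding genes in that range had 45.4%. From 5 to 20 CPM, 22 of 74 rose and 12 fell (45.9% called, against 60.8%), and from 20 to 50 CPM, 24 of 67 rose and 12 fell (53.7%, against 68.6%). At 50 CPM or more, 9 of 29 rose and 9 fell (62.1%, against 77.5%). In each of the 4 ranges the called share of members was therefore under that of protein-coding genes of like level. Among members, rises outnumbered falls in the 3 ranges below 50 CPM. From 1 to 5 CPM protein-coding genes had such an excess too, 483 rises (26.98%) and 329 falls (18.38%), against 17.5% and 5% of members. From 5 to 20 CPM 29.9% of protein-coding genes rose and 30.9% fell, against 29.7% and 16.2% of members. From 20 to 50 CPM these shares were 34.5% and 34.2%, against 35.8% and 17.9%. At 50 CPM or more 37.4% of protein-coding genes rose and 40.1% fell, against 31.0% and 31.0% of members. In all 4 ranges members thus fell less often than protein-coding genes. Across members, the size of the change and the mean level had a Spearman rho of -0.22, a description over 210 genes that share libraries and depth.

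**Figure D2:**
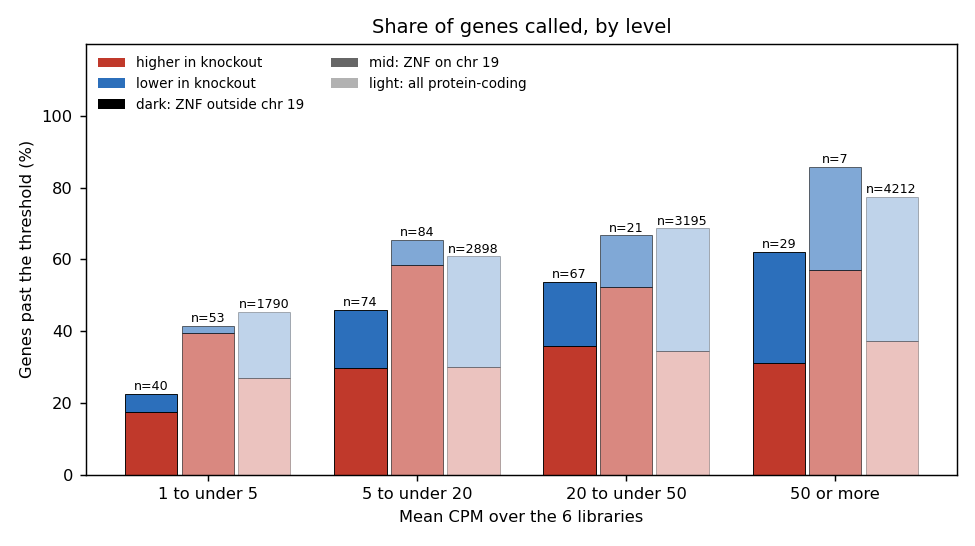
Percent of genes past the adjusted p threshold (vertical axis) in 4 ranges of mean CPM (horizontal axis), split into higher (red) and lower (blue) in the knockout, for members (dark), ZNF genes on chromosome 19 (middle shade) and all autosomal protein-coding genes (light), with the number of genes above each bar. Dark bars climb from 22.5% to 62.1% and stay below the light bars in every range.

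Among the 12 largest rises with separate groups, a KRAB box was found in 6, 3 lay on chromosome 7 and 3 on chromosome 16. The KRAB genes ZNF860 (rose by 0.78) and ZNF215 (0.70, with 23.5% opposite-strand overlap) passed the test, but their groups overlap. They are left out of these 12. ZNF107, a KRAB gene with 16 finger patterns (ENSG00000196247, chromosome 7 from 64666083 to 64711582, plus strand), stood at 11.8, 10.7 and 11.2 CPM in wild-type and 30.7, 27.7 and 31.0 CPM in knockout libraries. The knockout libraries all lay more than 2-fold above the wild-type ones, and the groups were far from overlapping. ZNF107 rose by 1.41 on the log2 scale (SE 0.0855, adjusted p 1.26e-15 in edgeR), from 11.2 ± 0.522 to 29.8 ± 1.83 CPM (SD, n = 3). ZNF467, a regulator known for steering mesenchymal precursors toward fat rather than bone, has 13 finger patterns and no KRAB box (ENSG00000181444, chromosome 7 from 149764182 to 149773479, minus strand). Its levels were 17.9, 16.4 and 18.0 CPM in wild-type and 41.9, 33.0 and 36.2 CPM in knockout libraries. The lowest knockout library again stood well above the highest wild-type one. ZNF467 rose by 1.08 (SE 0.083, adjusted p 4.9e-13 in edgeR), from 17.4 ± 0.894 to 37.0 ± 4.47 CPM. The bases upstream of these 2 genes, the strongest rises above 5 CPM, are given from RefSeq on GRCh38.p14, read 5′ to 3′ along the gene and ending at its first annotated exon, with matches to the searched motifs in capitals. The ZNF107 stretch is chr7:64665883-64666082 on the plus strand, with a CCAAT box 81 bases before the RefSeq start, and the ZNF467 stretch is chr7:149773589-149773838 on the minus strand, with a GC box 226 bases before the start.
ZNF107: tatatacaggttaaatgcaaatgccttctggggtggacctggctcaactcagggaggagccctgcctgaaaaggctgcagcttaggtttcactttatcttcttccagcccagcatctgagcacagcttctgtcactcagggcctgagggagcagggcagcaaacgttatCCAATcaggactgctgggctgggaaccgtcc
ZNF467: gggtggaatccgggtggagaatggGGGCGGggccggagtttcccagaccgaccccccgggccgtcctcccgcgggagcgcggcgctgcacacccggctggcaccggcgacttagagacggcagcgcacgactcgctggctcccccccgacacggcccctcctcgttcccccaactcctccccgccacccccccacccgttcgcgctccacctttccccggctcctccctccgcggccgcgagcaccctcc

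The next rises with separate groups were in genes of lower or middle level. ZNF879, a KRAB gene, rose by 1.14 (SE 0.239) from 1.31 ± 0.0579 to 2.90 ± 0.321 CPM, and ZNF391 rose by 1.11 (SE 0.243) from 1.37 ± 0.286 to 2.97 ± 0.473 CPM, so both rest on low levels. ZNF239, which binds both RNA and DNA, rose by 0.80 from 3.71 ± 0.945 to 6.46 ± 0.523 CPM. The KRAB genes ZNF689 and ZNF267 were more abundant. ZNF689 had 17.9, 16.9 and 17.7 CPM in wild-type and 32.0, 27.3 and 29.2 CPM in knockout libraries, a rise of 0.75 (adjusted p 1.15e-09 in edgeR). ZNF267 had 17.8, 20.6 and 19.5 CPM against 34.3, 31.0 and 29.9 CPM, a rise of 0.72 (adjusted p 2.44e-09 in edgeR). In both, all 3 knockout libraries were above all wild-type ones. The remaining 5 were ZNF273 (rose by 0.73), ZNF140 (0.68), ZNF717 (0.66), ZNF594 (0.63) and ZNF319 (0.61). ZNF140 is a KRAB repressor, and 13.5% of its exonic bases overlap a gene on the opposite strand in GENCODE 29, so its level is less certain, the strand setting of the counting being unknown here.

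Falls were led by ZNF365, a protein known for protecting stalled replication forks and telomeres (ENSG00000138311, chromosome 10 from 62374192 to 62670301, plus strand). Its levels were 4.33, 5.12 and 4.25 CPM in wild-type and 1.55, 1.23 and 1.62 CPM in knockout libraries, with no overlap between the groups. ZNF365 fell by 1.63 (SE 0.211, adjusted p 5.15e-08 in edgeR), but 31.1% of its exonic bases also belong to another gene of the same strand, so that the reads counted for it are uncertain. ZNF488, a corepressor in the oligodendrocyte lineage, stood at 9.36, 6.31 and 7.07 CPM against 2.88, 4.34 and 3.88 CPM and fell by 1.03 (SE 0.167). The KRAB gene ZNF300 (ENSG00000145908, chromosome 5 from 150894392 to 150904983, minus strand) had 12.5, 16.5 and 16.1 CPM in wild-type and 7.74, 5.86 and 8.89 CPM in knockout libraries. Despite the wider spread in both groups the ranges were separate, and ZNF300 fell by 1.00 (SE 0.13, adjusted p 5.65e-08 in edgeR). ZNF367, a factor with 2 finger patterns and no KRAB box (ENSG00000165244, chromosome 9 from 96385941 to 96418329, minus strand), stood at 19.4, 17.4 and 14.9 CPM against 8.70, 8.23 and 9.70 CPM. It fell by 0.95 (SE 0.109, adjusted p 5e-09 in edgeR), to a mean 1.94-fold below wild type. Upstream sequence of the latter 2, the largest falls above 10 CPM, is given in the same form, chr5:150904984-150905230 and chr9:96418371-96418620, both on the minus strand. The ZNF300 stretch holds a CCAAT box 178 bases before the start, and the ZNF367 stretch holds a CCAAT box 185 bases before it. The other ZNF367 matches are on the opposite strand: an E2F element 35 bases, GC boxes 145 and 43 bases and a CCAAT box 108 bases before the start.
ZNF300: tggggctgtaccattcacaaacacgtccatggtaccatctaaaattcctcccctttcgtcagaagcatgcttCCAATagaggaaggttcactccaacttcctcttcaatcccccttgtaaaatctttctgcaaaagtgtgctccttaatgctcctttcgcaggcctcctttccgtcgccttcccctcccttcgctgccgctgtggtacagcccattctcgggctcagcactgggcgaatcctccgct
ZNF367: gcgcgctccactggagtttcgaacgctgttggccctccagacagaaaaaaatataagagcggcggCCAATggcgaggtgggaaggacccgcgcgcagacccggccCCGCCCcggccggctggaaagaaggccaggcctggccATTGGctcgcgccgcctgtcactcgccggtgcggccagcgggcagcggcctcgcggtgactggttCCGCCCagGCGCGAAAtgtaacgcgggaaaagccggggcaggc

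ZNF532 was the most abundant member among the 12 largest falls. This subunit of a chromatin reader complex with ZMYND8 stood at 117, 120 and 112 CPM in wild-type and 69.9, 74.9 and 76.0 CPM in knockout libraries. The groups were clearly apart, and ZNF532 fell by 0.66 (SE 0.0505, adjusted p 5.02e-13 in edgeR) from 116 ± 4.43 to 73.6 ± 3.29 CPM. ZNF652, a repressor that works with the corepressor CBFA2T3, fell by 0.60 from 28.3 ± 0.283 to 18.6 ± 1.70 CPM. ZNF703, an oncogene of breast cancer that acts as a corepressor, fell by 0.49 from 26.5 ± 0.838 to 18.8 ± 0.465 CPM. The others were ZNF771 (fell by 0.56), ZNF280D (0.51, with 27.3% of its exonic bases overlapping a gene on the same strand), ZNF519 (0.48), ZNF25 (0.46) and ZNF18 (0.46). Without wild-type replicate 1, ZNF771 gave -0.34 with an adjusted p of 0.0694 in edgeR. ZNF519 gave -0.30 without wild-type replicate 2 (adjusted p 0.204), -0.39 without knockout replicate 1 (0.101) and -0.47 without knockout replicate 2 (0.0593), all in edgeR. With all 6 libraries, ZNF519 gave -0.43 in limma-voom with an adjusted p of 0.0517.

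**Figure D3:**
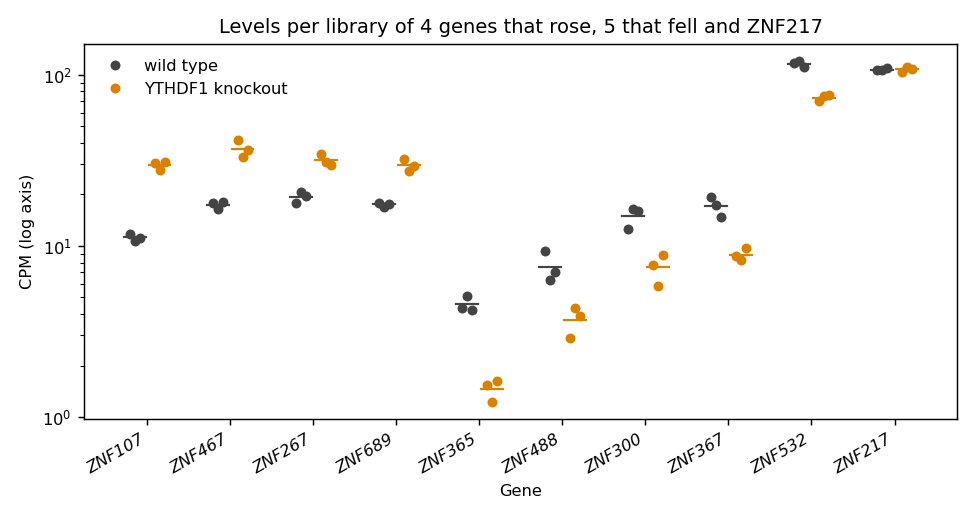
CPM on a log axis (vertical) in each of the 3 wild-type libraries (dark) and 3 knockout libraries (orange) for 4 members that rose, 5 that fell and ZNF217, which did not pass the test (horizontal axis); short lines are group means. The groups are separate for the 9 changed members, while ZNF217 stays at 107 and 108 CPM.

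Of the 8 most abundant members per unit of length, 2 rose, 1 fell and 5 did not pass. As background, 53.5% of all genes tested and 66.4% of protein-coding genes at the floor were called. Per kilobase of exon the highest mean level was that of ZNF281, a repressor linked to pluripotency and epithelial plasticity, at 33.1 CPM per kilobase. It was 158 ± 4.01 CPM in wild-type and 166 ± 7.15 CPM in knockout libraries and did not pass the test (adjusted p 0.206 in edgeR). ZNF622, a maturation factor of the large ribosomal subunit, followed at 27.8 CPM per kilobase, then ZNF503 (23.8), ZNF664 (19.7), ZNF217 (17.4), ZNF768 (16.0), ZNF592 (15.1) and ZNF207 (13.7). Among these, ZNF622 rose by 0.47, ZNF207 rose by 0.30 and ZNF664 fell by 0.27. The 4 members of smallest change among the 30 most abundant were ZNF217, ZNF292, ZNF592 and ZNF219, the last with over 20% of its exonic bases overlapping an opposite-strand gene. ZNF217, an amplified oncogene that works with the CoREST corepressor, had 106, 106 and 110 CPM in wild-type and 104, 111 and 108 CPM in knockout libraries, and these ranges overlap.

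Members that partner chromatin complexes moved in both directions. Of 17 listed, 15 were measured; 3 rose, 4 fell and 8 did not pass, and their median log2 fold change was -0.03. The called share of 46.7% was below the 53.5% of all genes tested and the 66.4% of protein-coding genes at the floor. ZMYND8 binds a set of related zinc finger proteins, ZNF532, ZNF592 and ZNF687, and these differed. ZNF687 stood at 42.9, 42.0 and 37.8 CPM in wild-type and 61.6, 61.7 and 57.1 CPM in knockout libraries and rose by 0.56 (SE 0.0617, adjusted p 2.33e-09 in edgeR). ZNF532 fell, as given above, and ZNF592 was at 123 ± 1.82 CPM in wild-type and 122 ± 2.52 CPM in knockout libraries (log2 difference of -0.02). Among partners of the H3K9 methyltransferases EHMT1 and EHMT2, ZNF518B rose by 0.39 (25.5 ± 0.594 to 33.5 ± 0.966 CPM) and ZNF644 rose by 0.28 (40.8 ± 3.33 to 49.7 ± 1.90 CPM). ZNF462, a large protein of neural chromatin control, fell by 0.36 from 31.8 ± 0.69 to 24.8 ± 1.09 CPM. ZNF638, which brings the HUSH silencing complex to unintegrated retroviral DNA, fell by 0.20 from 181 ± 4.32 to 158 ± 4.67 CPM. The fourth fall in the list was that of ZNF703. ZNF516, ZNF518A, ZNF335, ZNF827, ZNF219 and ZNF281 lay between -0.07 and 0.07 and did not pass.

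Among 11 measured members of 12 listed for RNA, the ribosome and translation, 3 rose and 3 fell, with a median of 0.02 and a called share (54.5%) close to the 53.5% of all genes tested. ZNF622 had 39.9, 43.2 and 35.8 CPM in wild-type and 58.7, 55.4 and 50.3 CPM in knockout libraries, every knockout library above every wild-type one. It rose by 0.47 (SE 0.0686, adjusted p 5.1e-07 in edgeR). ZNF74, an RNA-binding KRAB protein, rose by 0.35, with 15.6, 16.0 and 15.7 CPM against 21.7, 18.8 and 19.8 CPM, and ZNF239 was the third rise. ZNF346, which binds double-stranded RNA, fell by 0.23 from 27.8 ± 1.10 to 23.8 ± 1.42 CPM, and ZNF106, an RNA-binding protein, fell by 0.18 from 60.1 ± 1.88 to 53.1 ± 2.92 CPM. Both falls are small and depend on single libraries. The adjusted p in edgeR for ZNF346 was 0.0651 without wild-type replicate 3 and 0.0966 without knockout replicate 2. For ZNF106 it was 0.0568 without wild-type replicate 3 and 0.0609 without knockout replicate 1. ZNF598, the ubiquitin ligase that marks collided ribosomes, was at 58.0 CPM in wild-type and 61.5 CPM in knockout libraries and did not pass (adjusted p 0.235 in edgeR).

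All 7 members listed for cell division, genome stability, ubiquitin and SUMO were measured, of which 1 rose and 2 fell (42.9% called, against 53.5% of all genes tested). ZNF207, which loads the checkpoint protein BUB3 at kinetochores and is the most abundant member, had 190, 197 and 195 CPM in wild-type and 223, 243 and 251 CPM in knockout libraries. Every knockout library was above every wild-type one, and ZNF207 rose by 0.30 (SE 0.0455, adjusted p 9.5e-07 in edgeR). The falls were those of ZNF365 and ZNF367. ZNF451, a SUMO ligase, was at 31.4 CPM against 32.9 CPM and did not pass. Sequence-specific promoter factors had the smallest called share of the 4 role lists, 12.5%: of 16 measured, 1 rose, 1 fell and 14 did not pass, and all 16 lay within 0.5 of no change on the log2 scale. ZNF143, which activates many housekeeping and small nuclear RNA promoters, stood at 15.8, 15.6 and 15.7 CPM in wild-type and 16.6, 16.6 and 17.2 CPM in knockout libraries, a difference of 0.10 (SE 0.088) that did not pass. ZNF24 rose by 0.16 from 81.2 ± 1.44 to 91.1 ± 2.29 CPM. ZNF445, a KRAB protein that maintains imprinted methylation, fell by 0.22 from 33.2 ± 1.77 to 28.6 ± 2.40 CPM, with an adjusted p in edgeR of 0.0671 without wild-type replicate 3 and 0.135 without knockout replicate 2. All 4 lists were drawn up from general knowledge, and their counts are descriptions.

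Among KRAB members rises outnumbered falls, with a share of rises near that of other genes and a lower share of falls. With a KRAB box, 33 of 97 members rose (34.0%) and 10 fell (10.3%), and the median log2 fold change was 0.14. With none found in the longest coding sequence, 29 of 113 rose (25.7%) and 25 fell (22.1%), and the median was 0.01. A box present only in another coding sequence of a gene would be missed, so this class may hold KRAB genes. Among protein-coding genes at the floor 33.3% rose and 33.1% fell. The share called was 44.3% with and 47.8% without the box. No test was made between these classes. The summed level of the KRAB members was 1433, 1450 and 1472 CPM in wild-type and 1600, 1595 and 1596 CPM in knockout libraries. Knockout libraries were all above wild-type ones in this sum. Among members with 0 to 2 finger patterns falls outnumbered rises: 2 of 23 rose (ZNF207 and ZNF688) and 9 fell, with a median of -0.08. From 3 to 7 patterns 21 of 59 rose and 8 fell, from 8 to 11 patterns 18 of 66 rose and 9 fell, and with 12 or more 21 of 62 rose and 9 fell. Across the 210 members, finger number and log2 fold change had a Spearman rho of 0.15 and exonic length and log2 fold change had a rho of -0.08, both weak and given as descriptions.

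Among members with another member close by, rises outnumbered falls, and among members with none within 100 kb they did not. A member was called clustered when the start of another member lay within 100 kb on the same chromosome, which held for 89 members in 30 clusters. The others are called lone. Genes below the floor and other zinc finger families were not counted as neighbours, so a lone member can still have zinc finger genes nearby. ZNF107, which starts at 64666083 on chromosome 7, counts as lone although ZNF138 starts at 64794388. Of the clustered members 36 rose (40.4%) and 6 fell (6.74%), with a median log2 fold change of 0.16. Of the 121 lone members 26 rose (21.5%) and 29 fell (24.0%), with a median of 0.01. Protein-coding genes at the floor had 33.3% rising and 33.1% falling, and all genes tested 27.2% and 26.3%. KRAB boxes are more frequent among clustered members, 70.8% against 28.1%, and counts are therefore given within each class. Clustered KRAB members numbered 63, of which 24 rose and 3 fell, while of 34 lone KRAB members 9 rose and 7 fell. Where no KRAB box was found, 12 of 26 clustered members rose and 3 fell, while of 87 lone members 17 rose and 22 fell. The difference between clustered and lone members was not tested, because neighbours are not independent of each other. Many of the clustered rises lie on chromosome 7, where 16 of 27 members rose. The excess among clustered members and that on chromosome 7 thus share genes, and clustered members off chromosome 7 were not counted apart. In the 13 clusters of 3 or more members, 24 of 55 members rose and 1 fell, ZNF25 on chromosome 10. The number that fell was 3 without wild-type replicate 3, and 2 without wild-type replicate 2 or without knockout replicate 2.

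**Figure D4:**
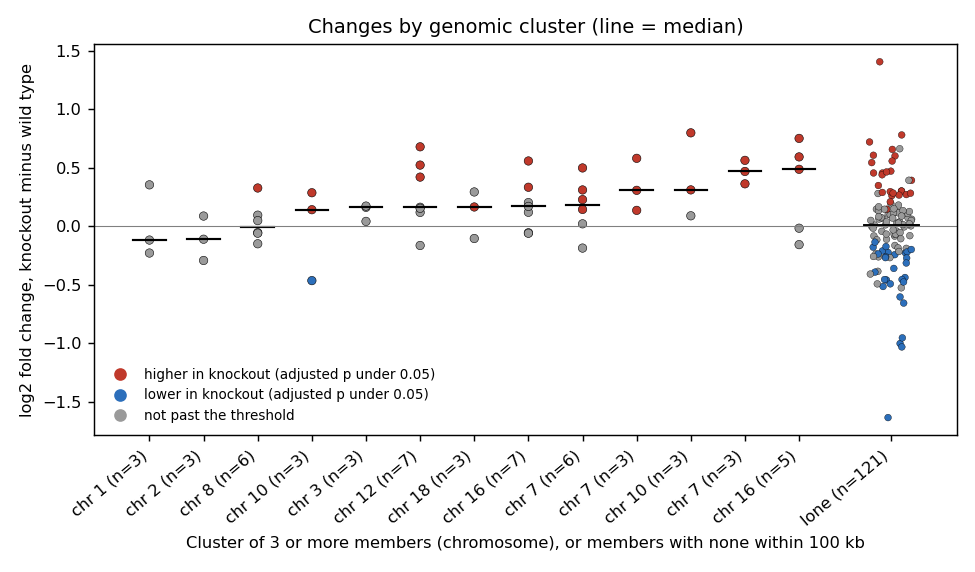
Log2 fold change, knockout minus wild type (vertical axis), of members in the 13 clusters of 3 or more, ordered by cluster median (black line), and of the 121 lone members on the right. Points are genes, red where they rose, blue where they fell and grey where they did not pass; ZNF25 on chromosome 10 is the 1 blue point among the clusters.

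Chromosome 7 carried the most rises, most of them in clustered members already counted above. Of its 27 members 16 rose and 2 fell (66.7% called, 59.3% rising), while 69.2% of protein-coding genes on chromosome 7 at the same floor were called and 38.0% rose. Chromosome 16 also had 27 members, of which 9 rose (33.3%) and 4 fell (14.8%), while 29.3% of its protein-coding genes rose and 35.4% fell. On chromosome 15, with 7 members, 1 rose and 4 fell, where 32.1% of protein-coding genes rose and 33.8% fell. The cluster with the most calls lies on chromosome 7 from 149069643 to 149297302 and holds ZNF786, ZNF425, ZNF398, ZNF282, ZNF212 and ZNF783. ZNF425 stood at 6.01, 5.64 and 4.55 CPM in wild-type and 8.27, 7.52 and 7.08 CPM in knockout libraries and rose by 0.50. ZNF783 rose by 0.31, although 29.5% of its exonic bases overlap another gene on the same strand. ZNF282 rose by 0.14 and ZNF212 by 0.23. These last 2 calls are not stable. For ZNF212 the groups overlap, and its adjusted p in edgeR ran from 0.107 to 0.168 without wild-type replicate 1 or 3 or knockout replicate 1 or 3. For ZNF282 it ran from 0.0520 to 0.217 without wild-type replicate 2 or 3 or knockout replicate 1 or 2. ZNF398 (0.02) and ZNF786 (-0.19) did not pass.

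A pair of smaller clusters on chromosome 7, chosen after their values were seen, had every member higher in the knockout. In the first, from 6615617 to 6706923, ZNF853 rose by 0.58, ZNF316 by 0.14 (adjusted p 0.0365 in edgeR) and ZNF12 by 0.31. In the second, from 99472841 to 99576453, ZNF789 rose by 0.56, ZNF394 by 0.47 and ZNF655 by 0.36. ZNF655, which has been tied to cell cycle control, was the most abundant of these 6. It had 78.2, 79.0 and 84.2 CPM in wild-type and 99.3, 102 and 109 CPM in knockout libraries, with no overlap. ZNF789 and ZNF394 lie on opposite strands with 6.66% and 12.7% of their exonic bases overlapping a gene on the other strand, so reads of the 2 may be mixed. On chromosome 16, the cluster from 30524001 to 30624012 had the highest median among clusters of 3 or more members, 0.49. ZNF689, ZNF747 (0.59, with 35.2% of its exonic bases overlapping a gene on the same strand) and ZNF688 (0.49) rose there, while ZNF768 (-0.02) and ZNF764 (-0.16) did not pass.

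Zinc finger genes on chromosome 19, taken by the same symbol and floor, mostly rose. Of 165 genes, 85 rose (51.5%) and 12 fell (7.27%), with a median log2 fold change of 0.37 against 0.08 for the members. Of protein-coding genes at the floor 33.3% rose and 33.1% fell, and of all genes tested 27.2% and 26.3%. A rise of at least 1 was seen in 18 of the 165 and in 4 members, against 7.95% of all genes tested. Those with a KRAB box on chromosome 19 numbered 137, of which 76 rose (55.5%) and 5 fell (3.65%), with a median of 0.42. The KRAB members elsewhere had a median of 0.14. The 28 on chromosome 19 with no KRAB box found had 9 rises (32.1%, near the protein-coding share), 7 falls (25%) and a median of 0.10. These counts come from the same libraries and the difference between the 2 sets was not tested. The share of counts on the chromosome 19 genes was 0.193% to 0.200% in wild-type and 0.238% to 0.240% in knockout libraries.

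Genes listed for TRIM28 and chromatin silencing were more often lower than higher in the knockout. The list also holds DNA methylation and nucleosome remodelling genes, so it is wider than the partners of KRAB proteins. Of 37 genes listed for TRIM28, H3K9 methylation and the HUSH complex, all tested, 4 rose (10.8%) and 20 fell (54.1%), where 33.3% and 33.1% of protein-coding genes at the floor did. The median log2 fold change was -0.15. CBX5, the heterochromatin protein HP1 alpha, stood at 422, 401 and 422 CPM in wild-type and 152, 149 and 173 CPM in knockout libraries and fell by 1.39 (SE 0.0484). UHRF1, which guides DNA methylation at replication, fell by 1.37 from 63.2 ± 3.03 to 24.5 ± 2.22 CPM. In both genes the groups were far apart. TRIM28 itself had 635, 653 and 635 CPM in wild-type and 496, 470 and 458 CPM in knockout libraries and fell by 0.43 (SE 0.0401, adjusted p 4.12e-11 in edgeR). The maintenance DNA methyltransferase gene DNMT1 fell by 0.54, the heterochromatin protein gene CBX1 by 0.49 and the nucleosome remodeller gene CHD3 by 0.49. The rises, named after seeing their values, were MORC3 (0.56), DNMT3B (0.44), RCOR1 (0.21) and the H3K9 methyltransferase gene SETDB1 (0.16, adjusted p 0.0486 in edgeR). Whether the levels of these genes bear on those of the members was not tested.

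**Figure D5:**
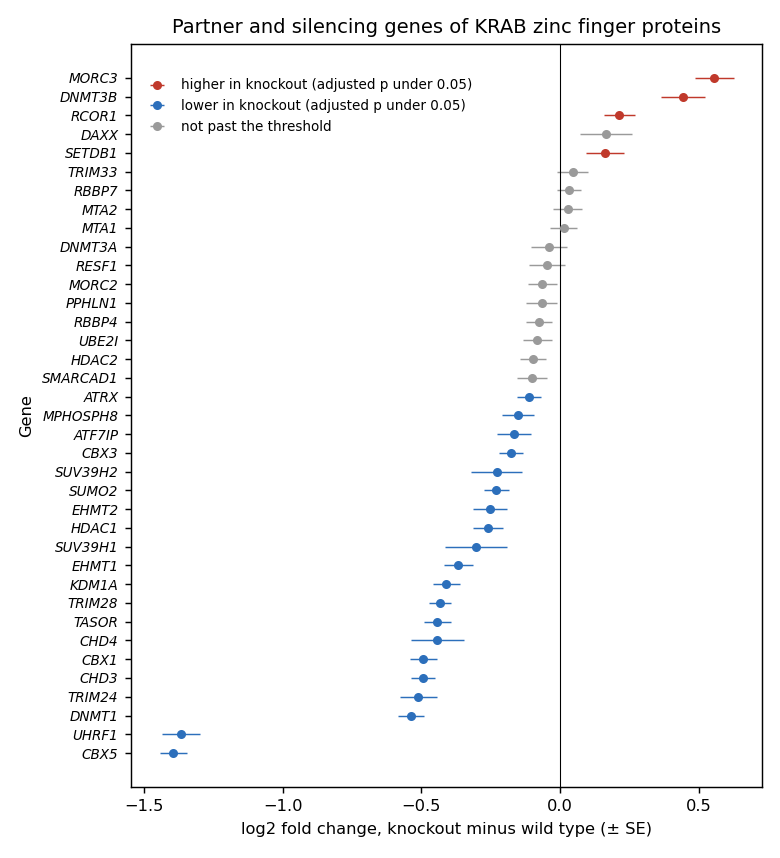
Log2 fold change, knockout minus wild type, with bars of ± the standard error (horizontal axis), for 37 genes (vertical axis). They were listed for TRIM28, H3K9 methylation and HUSH silencing, with DNA methylation and remodelling genes among them. The 20 blue points fell, with CBX5 at -1.39 and UHRF1 at -1.37 lowest, and the 4 red points rose.

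Promoter windows of the members held common motifs at shares near those of other expressed genes. A window of 250 bases before to 50 after the start was found in RefSeq for 176 of 210 members, and motifs were searched by their letters on both strands. The GC box (GGGCGG) was in 64.2% of member windows and 70.6% of those of protein-coding genes at the same floor, and the CCAAT box (CCAAT) in 44.3% against 36.3%. The NRF1 element (GCGC and TGCGC with 1 base between them) was in 14.2% against 11.7%, and the cyclic AMP element (TGACGTCA) in 3.98% against 3.39%. GC boxes, NRF1 elements and E2F elements can share bases. An interferon element (a pair of GAAA copies with 2 bases between them) was in 3 member windows (1.70%, against 2.87%), those of ZNF189, ZNF207 and ZNF774, of which ZNF189 rose by 0.26 and ZNF207 by 0.30 and ZNF774 did not pass. The E2F element (TTTNGCGC) was in 6 (3.41%, against 2.96%), namely ZNF367, which fell, ZNF74, which rose, and ZNF131, ZNF326, ZNF821 (37.4% opposite-strand overlap) and ZNF892, which did not pass. The long element bound by ZNF143 was in 4 windows (2.27%, against 0.561%). Of these, ZNF140 rose by 0.68, ZNF277 fell by 0.21, ZNF286A fell by 0.24 and ZNF451 did not pass. The level of ZNF286A is uncertain, since over 20% of its exonic bases overlap a same-strand gene and 61.0% of its 50-base stretches occur in another gene. Over all 27305 windows of the table these elements were in 44.6% (GC box), 35.7% (CCAAT box), 6.28% (NRF1), 1.98% (cyclic AMP), 3.65% (interferon), 1.83% (E2F) and 0.256% (ZNF143). A match describes letters and not binding.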

How the data were processed

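RNA-seq libraries were made from total RNA with a stranded kit, per the labels' protocols. The authors deposited raw read counts for 60617 Ensembl genes in 6 libraries. The submitters' processing notes name Trim Galore 0.6.6, STAR 2.7.0d, featureCounts 2.0.1, edgeR 3.32.1 and GRCh38, while the annotation release, the strand setting and the handling of multi-mapping reads are unknown here, so reads of near-identical or overlapping genes may be split or lost.

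The deposited counts were fitted in R 4.3.3 with edgeR 4.0.16 (filterByExpr, TMM factors, quasi-likelihood test, two-sided, genotype only), with Benjamini-Hochberg adjustment over 18505 genes. CPM values given per library use TMM factors, and the floor of 1 mean CPM and the levels printed with it use library totals. Coordinates, exons and coding sequences came from GENCODE 29 on GRCh38. Overlap of exons is given as a percent, and members with 20% or more are treated as uncertain. A KRAB box was called at 14 or more identities over 40 residues with a consensus of 186 seed windows in the longest translated coding sequence, used because no protein table was at hand, and 15 members lay near that limit with 10 to 17 identities.

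The members and lists were chosen with earlier results of these data known, so counts are descriptions and no list test was run. Genes were named by a rule: the 12 largest rises and 12 largest falls past the threshold with separate groups, and the 8 highest per kilobase. It also took the 4 least changed of the 30 most abundant, the 4 role lists and genes next to the floor. The cluster with most calls and 6 genes of the TRIM28 and silencing list completed it. Others were chosen after their values were seen.

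Libraries of a group differed by more than counting noise (chi-square of 4.20 to 6.09 per degree of freedom), so all 6 were kept. Same-numbered libraries did not deviate together (correlations of -0.026, -0.014 and 0.008). Alternatives were DESeq2 1.42.0, limma-voom (limma 3.58.1), RLE factors, library size only, other filters, a replicate block, each library left out, an adjusted p of 0.01, a 1.5-fold test, floors of 0.5 and 5 CPM, leaving out overlapping members and, chosen after seeing the data, leaving out members that share 20% or more of their 50-base stretches with another gene. The test was tested on simulated counts.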

Additional observations from a re-analysis of the deposited data

How the results depend on the processing

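The counts of members that rose and fell, 62 and 35, kept within 1.5 times under every alternative run except 1. A test for a fold of at least 1.5 left 5 members higher and 4 lower, 2585 of all genes (1573 higher, 1012 lower), 4 members with fingers and a KRAB box and 24 genes on chromosome 19. That test asks for larger changes by its construction. With each library left out in turn, 53 to 59 members rose and 31 to 36 fell, 9059 to 9486 of all genes were called, 34 to 42 members with fingers and a KRAB box, 87 to 99 genes on chromosome 19, and 38 to 41 of the 73 named members. With the replicate block, 62 members rose and 35 fell, so the block moved neither total. Single calls did move: rises went from 36 to 35 in clustered and from 26 to 27 in lone members. Calls over all genes went from 9893 to 9703. The labels do not say whether libraries of the same replicate number are pairs. Library size alone as scaling gave 70 members higher and 35 lower, and moved the median log2 fold change of all genes to 0.03. Of 949 values of named members under the alternatives, 0 reversed, 22 in 7 members lost the call and 15 in 5 members gained one. A reversal or a lost call could be scored only for the 41 of 73 named members called in the main fit. Changes of sign in the other named members were not counted. Clustered members rose in 28 to 39 cases and fell in 5 to 8 with the other tools, scalings and low-count filters, the replicate block and each library left out, and lone members rose in 24 to 31 and fell in 25 to 30. Under the 1.5-fold test these were 4 and 0 for clustered, and 1 and 4 for lone members. The clusters were not counted under the other thresholds, floors and exclusions. Of members under 5 CPM 22.5% were called, and of protein-coding genes in that range 45.4%; the part of depth was not tested.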

Other observations

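Zinc finger genes just outside the rule also moved in both directions. Of 41 autosomal genes below the floor, 11 were tested, and 2 were higher and 2 lower in edgeR; 17 had 0 counts in every library. ZNF385D had 10, 8 and 12 counts in the wild-type libraries and 0 in each knockout library. ZNF736 had 4, 0 and 0 counts in wild-type and 12, 16 and 15 in knockout libraries. ZNF843 had 35, 37 and 74 counts against 4, 22 and 21, and ZNF280A had 6, 4 and 2 counts against 9, 24 and 11.

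On the X chromosome, 11 of 12 genes with such symbols were tested, of which 3 were higher and 1 lower. ZNF185, an actin-binding LIM protein despite its symbol, fell by 0.98 (SE 0.115) from 14.5 ± 0.928 to 7.34 ± 1.05 CPM. ZNF75D rose by 0.44, ZNF674 by 0.41 and ZNF275 by 0.32.

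Related C2H2 families outside chromosome 19 at the same floor, read against 27.2% of all genes tested higher and 26.3% lower, gave these counts. Among 31 ZBTB genes 13 rose and 5 fell (median log2 fold change 0.11), and among 12 ZSCAN genes 1 rose and 2 fell (median -0.15). Of 6 ZKSCAN genes 2 rose and 2 fell, and of 9 ZFP genes 3 rose and 3 fell.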
